A study of Drosophila melanogaster with 12 samples.

Results

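The control ovary transcriptome of Drosophila melanogaster is described here from 3 RNA libraries, the mCherry RNAi libraries C1, C2 and C3, out of 12 samples in the series. The libraries were chosen by their label and by the count columns headed C1, C2 and C3, and no comparison with another RNA group was made. In these females the nanos-Gal4 driver, which acts in the germline, expressed UAS-mCherry RNAi, a hairpin against a fluorescent protein that flies do not make. The ovaries came from females dissected 2 days after eclosion, and the submitters call the 3 replicates biological. A chromatin table from the same series, made with an antibody to Pho on yw ovaries and with an antibody to GFP on GFP-Sfmbt and untagged Oregon-R ovaries, was used to mark genes with a binding summit. Germline and somatic cells were not separated, so every level is a mixture over the whole organ, and these driver-carrying flies stand for a normal ovary only as far as an inert hairpin allows.

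A fly ovary is a bundle of ovarioles in which egg chambers mature in order. Each chamber holds germline cells, the oocyte and its nurse cells, inside a sheet of somatic follicle cells. Nurse cells load the oocyte with maternal RNA, while follicle cells first pattern the egg and later secrete yolk proteins, the vitelline membrane and the chorion, the inner and outer layers of the eggshell. Pho and Sfmbt form PhoRC, the Polycomb complex that binds DNA at Polycomb response elements, and many classical Polycomb targets are developmental transcription factors.

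Levels are given as TPM, the deposited fragment count of a gene divided by its summed exon length and scaled to the same total in each library, and can be compared between genes. Totals ran from 36660629 to 51297961 counted fragments, so that 1 TPM of a gene of median length, 1402 bases, rested on 43.7 fragments in C1, 46.0 in C2 and 32.9 in C3. A count of 0 in such a gene allows up to 0.0686, 0.0652 and 0.0911 TPM in C1, C2 and C3, taking 3 counts as the limit and covering counting error only. With 1 group there was no contrast to test, so differences between libraries are described by their size and by the SD over 3 libraries.

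Of 17768 genes, 8015 were at 1 TPM or more in all 3 libraries (45.1%), 9086 were under 1 TPM in all 3 (51.1%), and the other 667 crossed that level between libraries. Among 13841 protein-coding genes, 7613 were at 1 TPM or more in all libraries and 2552 had no fragment in any. RNA was concentrated in few genes: 129 genes had a mean of 1000 TPM or more and held 56.2% of all TPM, while 4551 detected genes under 1 TPM on average held 0.0895%. Of the nuclear TPM, 50% was reached with 204 genes in C1, 163 in C2 and 184 in C3.

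The most abundant nuclear RNA was that of Cp15, a structural protein of the chorion (3L:8728481-8729066, BDGP6.28), at 25472 TPM in C1, 30811 in C2 and 27702 in C3. Its mean was 27995 ± 2681 TPM (SD, n = 3), and C1 was the lowest library. Cp38, a chorion gene of the X-linked cluster (X:8481837-8483311), was the next chorion gene at 12894, 16301 and 16527 TPM, again with C1 lowest. Among the 25 most abundant nuclear genes, 6 encoded chorion proteins (Cp15, Cp38, Cp36, Cp19, Cp18 and Cp16), 3 encoded vitelline membrane proteins (Vm34Ca, Vm26Aa and Vm26Ab) and 2 encoded yolk proteins (Yp2 and Yp1). Another 11 encoded cytoplasmic ribosomal proteins, led by RpL41 at 17818, 23375 and 23129 TPM. The remaining 3 were eEF1alpha1, the elongation factor that delivers tRNA to the ribosome, CG43134, known by its identifier only, and dhd.

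dhd (deadhead, X:5312171-5313125) encodes a thioredoxin of the female germline that acts on sperm chromatin at fertilisation. It stood at 3984 TPM in C1, 4065 in C2 and 4806 in C3, and was the most abundant gene on any germline list. CG43134 (X:4247313-4247785) was higher still, at 4454, 5321 and 5887 TPM. Together the 25 genes held 18.9% ± 1.16 of all TPM (SD, n = 3).

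The mitochondrial genome held 19.4% of TPM in C1, 23.0% in C2 and 21.8% in C3. Most of that was mt:lrRNA, the large ribosomal RNA, at 116195, 138802 and 128879 TPM. The small ribosomal RNA, mt:srRNA, was listed at 29.3, 48.3 and 48.0 TPM although both belong to the same ribosome. All 98 genes matched by symbol to rRNA in RefSeq and 261 of 290 matched tRNA genes were at 0 counts. The 98 do not include mt:lrRNA and mt:srRNA, which were counted. In contrast, 28 of 31 snRNA and 222 of 269 snoRNA genes had a fragment. The libraries were made from polyA RNA and fragments that map to several places were not counted, and the part of either in these values was not tested.

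**Figure D1:**
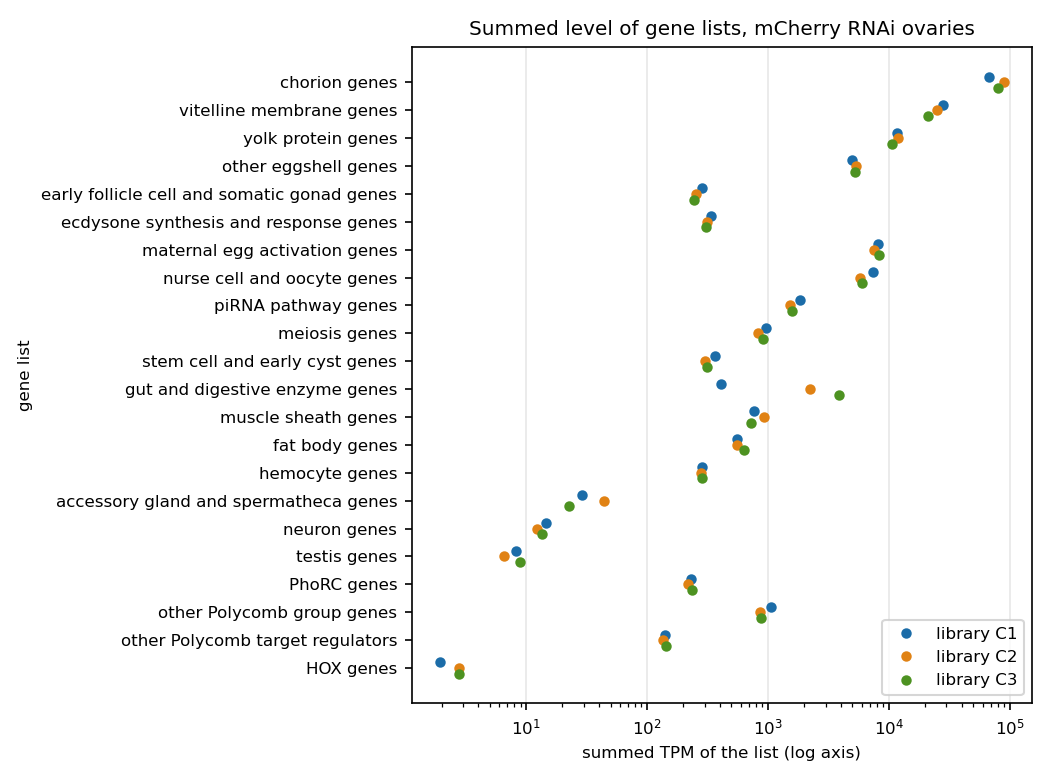
Summed TPM (log axis) of 22 gene lists, 1 point per library. Chorion, vitelline membrane and yolk lists lie highest, HOX genes lowest, and the gut list is the one whose 3 libraries lie farthest apart, from 408 to 3897 TPM.

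Among the germline, follicle and other cell lists, the eggshell genes of late follicle cells held most of the TPM. Genes outside the lists were not assigned to a cell type. The 9 chorion genes summed to 67637 TPM in C1, 89394 in C2 and 79610 in C3, or 7.89% ± 1.09 of all TPM (SD, n = 3). The 7 vitelline membrane genes summed to 28174, 25214 and 21034 TPM. C1 was the lowest library for all 9 chorion genes, and C3 was the lowest for all 7 vitelline membrane genes, on the TPM scale and after TMM scaling alike. The ratio of chorion to vitelline membrane TPM was 2.40 in C1, 3.55 in C2 and 3.78 in C3. In whole ovaries a larger share of cells of a stage and more RNA per cell cannot be told apart.

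Within the chorion list the levels spread over more than an order of magnitude. Cp19 stood at 6700, 10762 and 7842 TPM and Cp18 at 5590, 9490 and 7305 TPM, both on chromosome arm 3L beside Cp15 and Cp16 and both highest in C2. The X-linked genes Cp7Fc, Cp7Fb and Cp7Fa lay lower, with Cp7Fa at 601, 755 and 731 TPM. Among vitelline membrane genes Vm34Ca led at 9826, 8520 and 8322 TPM, and psd (palisade) was at 317, 270 and 188 TPM.

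The 3 yolk protein genes, whose products are taken up by the oocyte, summed to 11617, 12001 and 10711 TPM, a range of 1.12-fold. Yp2 stood at 5286, 5269 and 4624 TPM and Yp1 at 4413, 4629 and 4065 TPM, while Yp3 was lower at 1918, 2103 and 2022 TPM. Other eggshell genes included dec (defective chorion) at 1400, 1233 and 1085 TPM and yellow-g2 at 961, 1110 and 1183 TPM. Of these 14 genes, 12 were at 1 TPM or more in all libraries, beside 45.1% of all genes and 55.0% of protein-coding genes. Pxd, a peroxidase gene, was under 1 TPM in each.

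Regulators of follicle cell identity were far less abundant than the products those cells secrete. The 29 early follicle cell and somatic gonad genes summed to 287, 254 and 245 TPM, with a median of 3.71 TPM. Of them, 20 were at 1 TPM or more in all libraries, beside 45.1% of all genes and 55.0% of protein-coding genes. tj (traffic jam), a transcription factor of follicle and other somatic gonad cells, was the highest at 83.2, 62.6 and 56.1 TPM. ttk, a transcriptional repressor, followed at 45.9, 41.3 and 41 TPM, and tkv, a receptor for the Dpp signal, at 32.0, 27.9 and 28.0 TPM.

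Several genes used as markers of small follicle or terminal filament populations were near 0. The secreted signals hh and wg averaged 0.187 and 0.0265 TPM, and the transcription factor gene en averaged 0.0147 TPM, with 1, 3 and 0 fragments in C1, C2 and C3. slbo, the border cell regulator, averaged 2.08 TPM, and upd1, the ligand made by polar cells, 0.419 TPM. A gene active in few cells of the organ is diluted in such a mixture, so these values do not say that the genes are off in those cells.

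Among 20 ecdysone genes, 16 were at 1 TPM or more in all libraries, beside 45.1% of all genes and 55.0% of protein-coding genes. ImpL2, an ecdysone-inducible gene, was the highest at 75.4, 78.6 and 77.0 TPM, and usp, the partner of the ecdysone receptor, was at 57.8, 46.0 and 45.7 TPM. spo (spook), an enzyme of ecdysone synthesis, was at 22.3, 13.8 and 9.87 TPM, with C1 more than 2 times C3. Its paralog spok had 1 fragment in all libraries together.

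**Figure D2:**
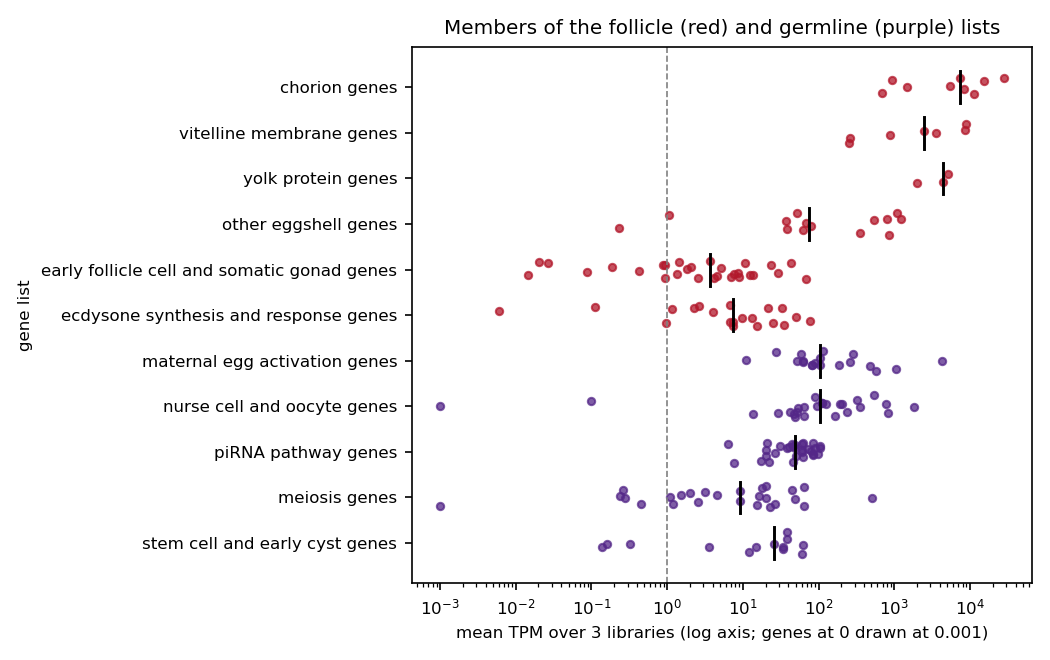
Mean TPM over 3 libraries (log axis) of each member of the follicle lists (red) and the germline lists (purple), with a black bar at each list's median and a dashed line at 1 TPM. Chorion, vitelline membrane and yolk genes lie above 100 TPM, and all 31 piRNA pathway genes lie to the right of the line.

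Most germline genes were detected. Of 115 genes on 5 germline lists, 104 were at 1 TPM or more in all libraries, beside 45.1% of all genes and 55.0% of protein-coding genes. Another 10 were under 1 TPM in all. Those 10 include cup and mei-217, which could not be counted. Of the 113 genes with any exon base of their own, 8 were under 1 TPM in all libraries. Genes counted from few of their bases were not left out of these, so a low level need not be a measurement. The TPM of all 115 genes summed to 18673 in C1, 16004 in C2 and 17122 in C3. The follicle lists summed to 6.05, 8.28 and 6.84 times as much. That ratio turns on eggshell and yolk RNA: without those lists the follicle genes summed to 582 ± 38.6 TPM (SD, n = 3).

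The nurse cell and oocyte list was led by me31B, an RNA helicase that keeps maternal mRNA silent, at 2215, 1550 and 1753 TPM. tral, its partner in the same particles, stood at 951, 673 and 710 TPM, and C1 was the highest library for both. pgc, which silences transcription in the primordial germ cells, was at 754, 915 and 840 TPM, and yl, the yolk receptor of the oocyte, at 617, 528 and 480 TPM. exu, needed to localise bcd mRNA, was at 432, 293 and 325 TPM.

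The axis-forming mRNAs covered a wide range. nanos, the posterior determinant, stood at 366, 283 and 332 TPM, while osk averaged 96.4 TPM, bcd 41.6 TPM and grk, the oocyte signal to the follicle cells, 13.7 TPM. Of 25 nurse cell and oocyte genes with a fragment, 22 were highest in C1, on the TPM scale and after TMM scaling, against 47.0% of all genes at 1 TPM or more after that scaling. The median gene was higher in C1 than in C2 by 0.17 and than in C3 by 0.13 on the log2 TPM scale, and by 0.02 and 0.03 after TMM scaling, so differences of that size in TPM are shared by the whole library.

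All 31 piRNA pathway genes, which silence transposons in the germline and in follicle cells, were at 1 TPM or more in each library. piwi, the nuclear Argonaute, led at 105 ± 17 TPM (SD, n = 3) with C1 highest, followed by Nbr, which trims piRNA ends, at 116, 97.4 and 97.5 TPM, and Boot at 113, 90.7 and 87.0 TPM. The cytoplasmic Argonautes AGO3 and aub averaged 61.2 and 59.6 TPM, and cuff, which acts at piRNA source loci, was lowest at 6.42 TPM. The list's median was 49.0 TPM, beside 31.3 TPM over all genes at 1 TPM or more in all libraries.

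The maternal genes of egg activation and the first embryonic divisions were all at 1 TPM or more. After dhd came CycB, a mitotic cyclin, at 1200, 1015 and 942 TPM, alphaTub67C, a maternal tubulin, at 658, 517 and 571 TPM, and gnu, an activating subunit of the PNG kinase, at 482, 465 and 499 TPM. smg, the RNA-binding repressor of maternal mRNA, stood at 328, 269 and 249 TPM. The sum of the list varied by 1.10-fold between libraries, but dhd, highest in C3, made up 4285 of its mean of 7979 TPM. Of the 19 members, 16 were highest in C1 on the TPM scale. After TMM scaling 15 were, beside 47.0% of all genes at 1 TPM or more.

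Meiosis genes were lower, with a median of 9.18 TPM. At 1 TPM or more in all libraries were 20 of 26, beside 45.1% of all genes and 55.0% of protein-coding genes. mtrm (matrimony), an inhibitor of the Polo kinase in the oocyte, stood apart at 539, 464 and 515 TPM. nod, a kinesin-like protein that holds achiasmate chromosomes, was at 66.5, 59.5 and 66.1 TPM, and c(3)G, of the synaptonemal complex, averaged 16.4 TPM. ord, sunn and narya averaged 0.237, 0.448 and 0.265 TPM. The early cyst list was led by nclb at 73.8, 54.5 and 60.3 TPM, and bam, the differentiation factor of cystoblasts, stood at 36.8, 33.1 and 32.4 TPM, whereas its partner bgcn averaged 0.162 TPM.

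Some zeros in this table say nothing about the ovary. Fragments that overlap more than 1 gene on the same strand were not counted, and 478 genes had no exon base of their own, of which 298 encode proteins. All 478 were at 0 counts. cup, the translational repressor of osk mRNA (2L:6663664-6674780), was at 0 in every library because each of its exon bases lies within CG34310 as well, and CG34310 was counted from the 265 bases that are its own. Orc3, a subunit of the origin recognition complex, and CG34315 cover each other completely and both were at 0. mei-217 shares all its bases with mei-218, and BicC was counted from 236 of 4547 bases, so the levels of these genes are not given as measurements.

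Leaving such genes out, 4321 genes had no fragment, of which 2254 were protein-coding out of 13543. Most sensory genes were under 1 TPM in all libraries, beside 51.1% of all genes and 41.3% of protein-coding genes. The counts were 59 of 60 odorant receptor, 59 of 60 gustatory receptor, 61 of 66 ionotropic receptor and 40 of 51 odorant-binding protein genes. These families were chosen by symbol after levels had been seen. Among the exceptions were Ir7c at 73.8, 77.2 and 71.9 TPM, Ir76a with a mean of 7.49 TPM and Or43b at 6.18, 4.84 and 6.09 TPM. The odorant-binding protein genes Obp19c and Obp99a stood at 592, 667 and 730 TPM and at 47.5, 68.6 and 89.7 TPM. Of 97 cuticle protein genes, 88 were under 1 TPM in all libraries.

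Paralogs of housekeeping genes, also chosen after levels had been seen, differed widely in level. RpS5b, a ribosomal protein gene (3R:14900432-14901563), stood at 2051, 1974 and 2063 TPM, and its paralog RpS5a (X:17143588-17148264) at 212, 216 and 196 TPM. The reverse held for the ribosomal protein S19 pair, with RpS19a at 878 ± 51.4 TPM and RpS19b at 3.38 ± 0.459 TPM (SD, n = 3). Among tubulins, alphaTub85E had 1 fragment in all libraries, while alphaTub84B averaged 1497 TPM. Reads shared by near-identical copies would not be counted, so Prosalpha1 and Prosalpha1R, both at 0 counts, are uncertain.

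Genes of the testis, of neurons and of the Y chromosome were mostly under 1 TPM. For reference, 51.1% of all genes and 41.3% of protein-coding genes were under 1 TPM in all libraries, and 27.0% and 18.4% had no fragment. Of 31 testis genes, 27 were under 1 TPM in all libraries and 17 had no fragment. All 11 listed Y-linked genes were at 0, and the whole Y chromosome had 146 fragments in 3 libraries, of which FDY had 39, 35 and 35. Of 18 neuron genes, 17 were under 1 TPM in all libraries, the exception being unc-13 at 12, 10 and 10.9 TPM. elav, a pan-neuronal RNA-binding protein, averaged 0.402 TPM.

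Genes of muscle, hemocytes, fat body and spermatheca differed widely in level. Act57B, a muscle actin, stood at 349, 440 and 326 TPM and Mhc, the muscle myosin heavy chain, at 40.6, 49.6 and 40.0 TPM, and 19 of 22 muscle sheath genes were at 1 TPM or more in all libraries. Defining hemocyte genes were low, with Hml at 0.636, 1.03 and 0.859 TPM, although the collagen genes Col4a1 and vkg were at 60.9 and 42.5 TPM in C1. The fat body gene Lsp2 stood at 18.4, 41.6 and 69.4 TPM. In all libraries, 6 of 14 hemocyte genes and 10 of 16 fat body genes were at 1 TPM or more. The share at that level was 45.1% of all genes and 55.0% of protein-coding genes, so these 2 counts lie near it. Send1, a protease gene of the spermatheca, was at 23.8, 36.2 and 18.5 TPM. However, 8 of 10 accessory gland and spermatheca genes were under 1 TPM in all libraries, and 5 had no fragment. The share under 1 TPM was 51.1% of all genes and 41.3% of protein-coding genes.

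Of 29 lists, that of digestive enzyme genes differed most between libraries. They summed to 408 TPM in C1, 2232 in C2 and 3897 in C3, a range of 9.55-fold, and C1 was lowest for all 22 members with a fragment after TMM scaling. Jon65Aiv, a gut serine protease, stood at 63.2, 418 and 624 TPM, and alphaTry, a trypsin, at 50.8, 325 and 625 TPM. Without C1 the mean of the list was 3064 TPM, without C2 2152 TPM and without C3 1320 TPM.

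**Figure D3:**
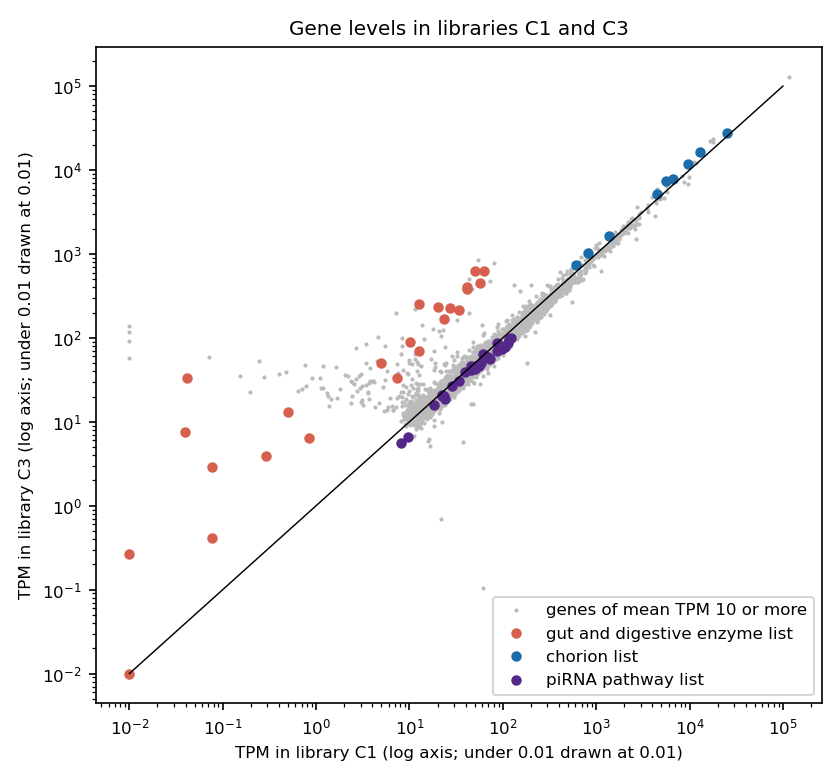
TPM in library C1 against library C3 (log axes) for genes with a mean of 10 TPM or more (grey) and for all members of 3 lists. Members of the gut list lie above the line of equal level, for example Jon65Aiv at 63.2 and 624 TPM, while chorion and piRNA pathway genes lie along it.

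For most genes the libraries were close. Among 6400 genes of 10 TPM or more, the median coefficient of variation after TMM scaling was 6.08%, and 183 genes (2.86%) differed by 2-fold or more between the highest and the lowest library. C1 was the lowest library for 164 of the 183, and C3 the highest for 152. All 15 gut list members of 10 TPM or more were among them, as were 0 of 93 germline list members and 1 of 46 follicle list members. The lists were chosen with earlier results of these data known, so these overlaps describe the lists and are no independent evidence. Without C1, 63 genes differed by 2-fold between C2 and C3.

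The most variable genes were present in 1 library or nearly absent from C1. whe had 0, 0 and 1190 fragments, lcs 0, 0 and 806, CG45080 0, 0 and 601, and CG16826 0, 1 and 4085, so that C3 alone carried them. CG16826 was at least 1931-fold higher in C3 than in C1, with 3 counts in C1 as the floor. CG14645 showed the opposite pattern, with 780 fragments in C1 and 1 in each other library.

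A second kind of variable gene was low in C1 and high in both other libraries. LManV and LManVI, lysosomal mannosidase genes, had 4, 1358 and 2399 and 24, 2748 and 3983 fragments. Mal-A7, a maltase gene, had 13, 1498 and 2249 fragments, CG7916 8, 850 and 737, and CG12057 2, 760 and 1241. LManV is itself a member of the gut list. The part of gut RNA in the differences between libraries was not tested.

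The least variable genes of 10 TPM or more were ND-19, a complex I subunit, at 61.1, 61.1 and 61.2 CPM after TMM scaling, Gcn5, a histone acetyltransferase, tsr, the fly cofilin, CG11050 and CG5674. Each differed by 1.0024-fold or less between libraries. Their coefficients of variation, 0.132% or less, lie under the median counting error of 1.91% for genes of 10 TPM or more. As the extremes of 6400 genes, they are not shown to be steadier than others. The common biological coefficient of variation was 0.217 over 9132 genes, and 0.116 without C1. The median of the per-gene estimates was 0.131, and 0.0871 without C1. Spearman's rho across 8418 genes was 0.988 for C1 and C2, 0.980 for C1 and C3 and 0.994 for C2 and C3. Counts of every pair differed by more than counting error, with a chi-square per gene of 27.8 or more, so the 3 were treated as separate libraries and not as 1 deposited again.

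Of all protein-coding genes, 55.0% were at 1 TPM or more in all libraries. The share was 51.9% on 2L, 54.6% on 2R, 53.5% on 3L, 55.2% on 3R, 60.8% on X and 70.9% on chromosome 4. Among these genes the median level was 31.0 TPM on X, 32.9 TPM on 2L and 42.9 TPM on chromosome 4, the last over 56 genes.

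Polycomb group genes were expressed throughout. pho stood at 127, 135 and 154 TPM, its paralog phol at 59.9, 50.7 and 48.4 TPM, and Sfmbt at 45, 34.3 and 35.4 TPM. All 22 other Polycomb group genes were at 1 TPM or more in each library, from Caf1-55, a histone-binding subunit of PRC2, at 234, 181 and 204 TPM to ph-p, of PRC1, with a mean of 1.53 TPM. E(z), the PRC2 methyltransferase, averaged 35.5 TPM and Pc 22.6 TPM.

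Classical Polycomb targets were mostly silent. Of 8 HOX genes only abd-A passed 1 TPM in all libraries, at 1.55, 2.09 and 2.10 TPM, and Scr had no fragment. Of 60 other target regulators, 49 were under 1 TPM in all libraries, beside 51.1% of all genes and 41.3% of protein-coding genes, and 7 were at 1 TPM or more in all. Those 7 were cad at 83.5, 67.5 and 67.4 TPM, srp at 26.5, 34.7 and 39.9 TPM, eya, mid, bowl, mirr and dpp. cad is a homeobox gene whose maternal RNA patterns the posterior embryo, and srp encodes a GATA factor; C1 was the highest library for cad and the lowest for srp.

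The authors' deposited table lists 352 summits of Pho and GFP-Sfmbt binding at 289 genes, of which 286 were found in the count table and 3 were not analysed here. Of these 286 genes, 189 (66.1%) were at 1 TPM or more in all libraries, beside 44.8% of the 17482 genes without a summit. Among protein-coding genes the shares were 66.3% of 282 and 54.8% of 13559. The median level was 20.9 TPM with a summit and 0.561 TPM without, or 4.38 TPM for protein-coding genes without, so part of the gap lies in the kind of gene set beside them. At the other end, 12 genes with a summit had no fragment, among them the mesoderm regulator twi.

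**Figure D4:**
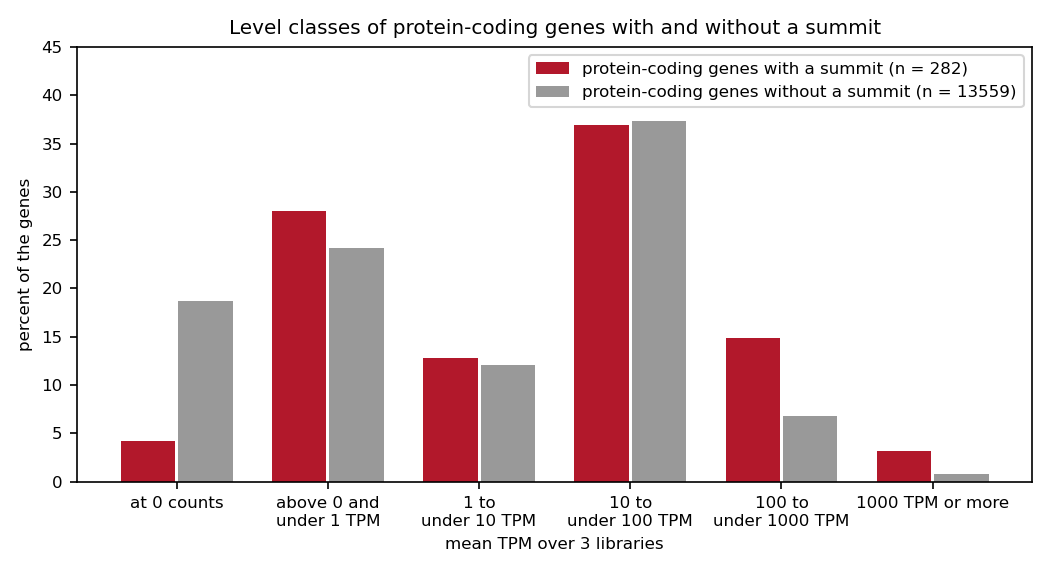
Percent of protein-coding genes with a summit (red, n = 282) and without one (grey, n = 13559) in each class of mean TPM. Genes at 0 counts make up 4.26% of the first and 18.7% of the second, and genes of 100 to under 1000 TPM 14.9% and 6.84%.

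The level of a gene with a summit differed with the rank of its best summit in the authors' deposited table. Of the 72 best-ranked genes, 33 were at 1 TPM or more in all libraries (45.8%, beside 45.1% of all genes and 55.0% of protein-coding genes), with a median of 0.506 TPM. In the next 71, the following 71 and the last 72 genes the shares were 76.1%, 78.9% and 63.9%, with medians of 29.5, 42.4 and 19.9 TPM. Genes with 1 summit were at 1 TPM or more in 70.2% of 248 cases, genes with 2 summits in 42.9% of 28, and genes with 3 or more in 30.0% of 10.

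Of the 10 best-ranked genes, 4 were at 1 TPM or more in all libraries. abd-A, with 5 summits and 124.6 RPM of Pho in the authors' deposited table, stood at 1.55, 2.09 and 2.10 TPM, and Abd-B, with 8 summits, at 0.0925, 0.114 and 0.0722 TPM. CG31275 had no fragment, and oc, grn, unc-4 and drm, all developmental regulators, averaged 0.00966, 0.00608, 0.0507 and 0.537 TPM. Prat2, an enzyme of purine synthesis, stood at 1.33, 3.23 and 4.58 TPM.

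cad and dhd were the most abundant of the 10. cad, whose summit lies 203 bases before its start, averaged 72.8 TPM. dhd, whose summit lies 62 bases after its start, averaged 4285 TPM and was the only gene with a summit among the 25 most abundant nuclear genes. RpS5b had a summit 34 bases before its start and 20.9 RPM of Pho in the authors' deposited table. By the TPM computed here, only dhd and sta surpassed it among genes with a summit. In the authors' own control TPM, RpL37-1, Tctp and Act5C also stood above it, at 2429, 1900 and 1839 against 1775.

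**Figure D5:**
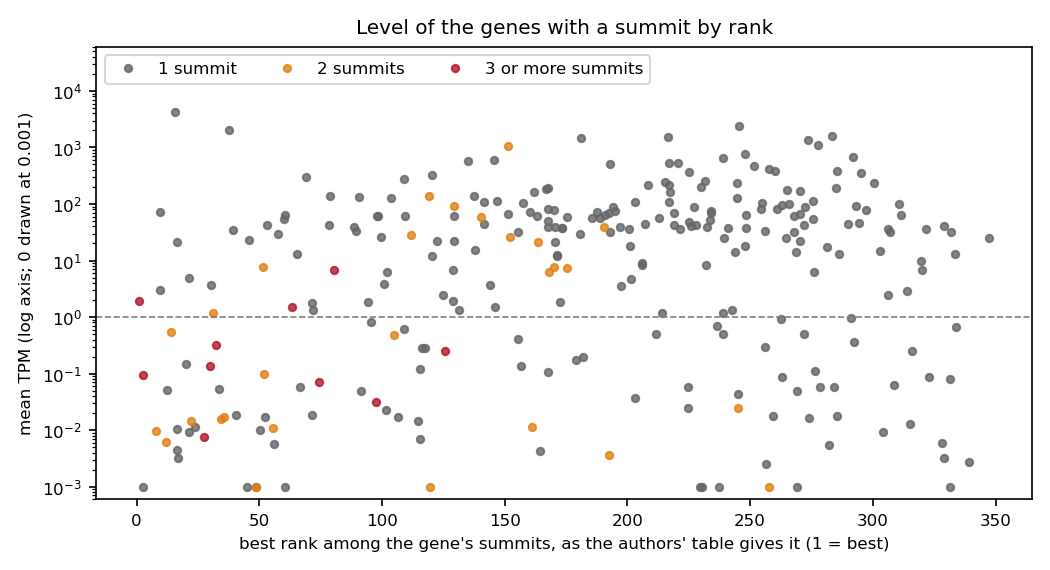
Mean TPM (log axis) of the 286 genes with a summit against the best rank of their summits in the authors' table, coloured by the number of summits. Most genes with 3 or more summits (red) lie below 1 TPM, and the 2 highest points among the 50 best ranks are dhd and RpS5b.

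The other abundant genes with a summit were sta, a ribosomal protein, at 2653, 2341 and 2295 TPM, Act5C, a cytoplasmic actin, at 1740, 1496 and 1501 TPM, Tctp, alphaTub84B, CtsK1, RpL37-1, CycB and tral. Their best summits were ranked between 151.5 and 283.5 in the authors' deposited table. Of 115 germline list genes, 12 had a summit (10.4%), and none of the 19 chorion, vitelline membrane and yolk genes had one. The share was 1.61% of all genes, 2.04% of protein-coding genes and 2.36% of genes at 1 TPM or more in all libraries. List members were chosen with earlier results of these data known, so their shares describe these lists only. Of 35 HOX and other target genes with a summit, 28 were under 1 TPM in all libraries. Of target regulators other than HOX genes, 23 of 29 with a summit and 26 of 31 without one were under 1 TPM in all libraries.

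The control levels that the authors' deposited table gives for the same genes followed the TPM computed here, with Spearman's rho of 0.983 across 286 genes. Over the 193 genes with a mean of 1 TPM or more here the authors' mean was 0.858 times the value computed here at the median. Of 195 genes at 1 TPM or more in either, 14 differed by more than 2-fold. MEP-1 was at 0.504 TPM here and at 43.9 TPM in the authors' deposited table. It was counted from 608 of its 5719 exon bases, the other bases being shared with another gene, so its place among the genes with a summit under 1 TPM is not a measurement of its level. It was the only gene with a summit for which fewer than 50% of the exon bases were its own.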

How the data were processed

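Ovary polyA RNA was sequenced from TruSeq stranded libraries, per the labels' protocols. Per the file headers, and per the submitters' processing notes for tool versions, the authors aligned reads with STAR 2.7.2a and deposited fragment counts per gene from featureCounts 1.6.3 with a BDGP6.28 annotation: reverse-stranded pairs, both ends mapped, none counted for several genes. Columns C1 to C3 were read as the mCherry RNAi group from the authors' use of control in the deposited table; the labels do not spell out the letter, and which number is which sample is not used. The table has 3 count columns not used. The authors deposited RPM values, a rank score and mean TPM in the summit table; the submitters' processing notes list Bowtie2 and deepTools 3.5.0, while the peak caller is not given in the sources used here.

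TPM was computed from counts and deposited summed exon length, with mitochondrial genes in the total. Scaled values used TMM from edgeR 4.0.16 in R 4.3.3; the coefficient of variation came from an intercept-only dispersion fit after filterByExpr with a minimum count of 10, checked on simulated counts. DESeq2 1.42.0 gave alternative size factors. No contrast was tested, since there is 1 group. Of 17768 genes, 17671 had a symbol and 135 had no RefSeq biotype. Of 532 list entries on 29 lists, 529 were matched. Members and lists were chosen with earlier results of these data known, and the families, paralogs and alternatives on overlapping genes and 2-fold counts after levels were seen. Named genes were the 25 most abundant nuclear genes, the leading and near-absent members of each list, the 10 most and 5 least variable genes of 10 TPM or more, and the 10 most abundant and 10 best-ranked genes with a summit, with further members given as examples. Promoter sequences were not analysed here.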

Additional observations from a re-analysis of the deposited data

How the results depend on the processing

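With 1 group and no test, alternatives could only move values. The counts of genes at 1 TPM or more (7475 to 8571) and at 0 counts (4321 to 6377) stayed within 1.5 times their main values under every alternative run. Leaving mitochondrially encoded genes out of the total raised the sums of the chorion, vitelline membrane, yolk, nurse cell and oocyte, and piRNA lists to 100613, 31536, 14566, 8151 and 2089 TPM, and the share of the 25 top genes to 24.1%; as a share of counts it was 11.1%. Exon length less 200 bases gave 29103, 10078, 5460 and 1425 TPM for the vitelline membrane, yolk, nurse cell and oocyte, and piRNA lists. The common biological coefficient of variation was 0.263 with no filter, 0.184 at 10 TPM or more, and 0.116 to 0.286 with 1 library left out. Without C1, 63 genes differed 2-fold in place of 183, and leaving out C2 or C3 gave 175 and 124. The share of genes with a summit at 1 TPM or more was 68.9% at 0.5 TPM, 62.2% at 2 TPM, 60.8% for the 143 better-ranked genes, 71.9% for summits within 1000 bases of the start, and 66.1% to 67.1% with 1 library left out. Without a summit it was 47.9%, 41.7%, 46.0% without genes lacking a unique exon base, 54.8% for protein-coding genes, and 45% to 46.3% with 1 library left out. Median TPM with a summit was 16.5 with shortened lengths and 6.76 for the 143 better-ranked genes; without a summit it was 4.38 for protein-coding genes and 0.735 without genes lacking a unique base. Among 22 other lists, 37 of 152 alternatives moved a sum by 1 SD or more and 115 by less. All 37 left out mitochondrially encoded genes or shortened the exon lengths. Leaving out 1 of 3 libraries cannot move a mean by 1 SD, and other size factors only rescale whole libraries. Most of the 115 were of these kinds, so that count is no measure of stability. The cause of these moves was not tested beyond what each alternative changes by construction. Promoter motifs were not run. No paired analysis was possible because there is 1 group.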

Other observations

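Replication factors and cyclins were abundant in the control ovary, with a median of 106 TPM. Of 27 such genes, 26 were at 1 TPM or more in all libraries, beside 45.1% of all genes and 55.0% of protein-coding genes. The exception, Orc3, cannot be counted for lack of an exon base of its own. CycA stood at 604, 499 and 498 TPM and PCNA, the sliding clamp of DNA polymerase, at 473, 410 and 454 TPM. stg, the Cdc25 phosphatase that starts mitosis, averaged 106 TPM, and fzr, which promotes the switch to endocycles in follicle cells, 35.3 TPM.

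Histone variants were all detected. BigH1, the embryonic linker histone supplied by the mother, stood at 521, 510 and 571 TPM, above His2Av at 371, 332 and 337 TPM, and cid, the centromeric histone, at 48.5, 45.2 and 42.3 TPM. Heat shock genes were among the 60 most abundant nuclear genes: Hsp26 was at 2636, 2081 and 2330 TPM and Hsp83 at 2640, 1593 and 1504 TPM, with C1 highest for both.

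Detoxification genes differed within their families. Of 35 glutathione S-transferase genes, 28 were at 1 TPM or more in all libraries (80.0%, beside 55.0% of protein-coding genes), led by GstD1 at 1218, 1096 and 1166 TPM. Of 84 cytochrome P450 genes 43 were (51.2%, near the share of protein-coding genes), led by Cyp6a19 at 382, 310 and 333 TPM. Cyp4g1, which makes cuticular hydrocarbons in oenocytes, stood at 199, 274 and 432 TPM, lowest in C1 and highest in C3 as the gut list was, and the part of other tissue in it was not tested. Of 1951 long non-coding RNA genes, 1815 were under 1 TPM in all libraries (93.0%, beside 51.1% of all genes).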
